A study of Bombyx mori with 4 samples.

Results

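The silkworm transposon transcripts described here are 46 gene models annotated as transposons whose RPKM was higher in BmN4 cells depleted of Siwi than in control cells. They were chosen by their measured values: more than 10 RPKM (reads per kilobase of sequence per 1000000 genome-mapped reads) in at least 1 condition, and a log2 fold change (FC) of RPKM + 1 above 1 for Siwi KD over Luc KD. They are 46 of the 239 transposon gene models that passed 10 RPKM, of 2580 transposon gene models and of 18596 sequences in the table. Total RNA was sequenced from BmN4 cells, a cultured germ cell line derived from the silkworm ovary, after electroporation of siRNA against Siwi (Siwi KD, 2 libraries) or against luciferase (Luc KD, 2 libraries), which silkworm cells lack and which served as the control. Neither condition carried another agent in the labels. Each condition has 1 merged value per sequence in the table, so the differences could not be set against the spread between replicates, and no p-value is given. Since the fold change chose the gene models, their own changes are a description and not a finding.

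Siwi is a PIWI protein of the silkworm. Loaded with a PIWI-interacting RNA (piRNA), it cleaves complementary transposon RNA in the cytoplasm, and the fragments feed the production of further piRNAs by its partner Ago3 in the ping-pong cycle. Silkworms are thought to have no nuclear Piwi that would stop transposon transcription, so silencing acts largely on transcripts already made. Gene predictors often report the coding parts of transposons, such as reverse transcriptases, integrases and transposases, as gene models, and the study moved such models into its transposon class by their description or by similarity to known silkworm transposons. The table gives these gene models no family. The reference table of silkworm genes held none (0) of these identifiers, so sequences are named here by their length. For the same reason, the level of Siwi mRNA and of germ cell markers is not given.

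The depth was 84961588 reads counted on the sequences in Siwi KD and 77350240 in Luc KD, from 81135072 and 77184922 reads sequenced for the Siwi KD libraries and 77614516 and 68702400 for the Luc KD libraries. On a sequence of 1000 nt, 1 read pair is worth 0.0154 RPKM in Siwi KD and 0.0164 RPKM in Luc KD. Each of the 46 gene models had at least 1006 reads in Siwi KD and at least 318 in Luc KD. The counting error of their log2 FCs was between 0.01 and 0.11, which covers the number of read pairs only. Similar transposon copies can share reads under the random and multiple counting modes used, so single values are uncertain. In RNA from a whole culture, more transcript per cell and more cells with the transcript cannot be told apart. The median log2 FC of the 2617 expressed protein-coding genes was -0.13, and it was -0.09 over all 3006 expressed sequences. Values relative to the protein-coding median are therefore 0.13 higher than those printed.

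A log2 FC above 1 was found for 19.2% of the expressed transposon gene models, against 3.63% of all expressed sequences. It was found for 20 of 150 curated transposons, the named elements of an earlier list, which is 13.3%, and for 1.64% of the protein-coding genes. The share of gene models is raised by those that passed 10 RPKM only in Siwi KD, since these had to be higher there. Among gene models above 10 RPKM in Luc KD, a limit that does not use Siwi KD, 17 of 179 (9.50%) had a log2 FC above 1. By the same limit, the share was 13.5% of curated transposons (18 of 133) and 0.485% of protein-coding genes (12 of 2476).

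The 46 gene models together had 2182 RPKM in Siwi KD and 612 RPKM in Luc KD, a ratio of 3.56. The median was 23.2 RPKM in Siwi KD (quartiles 16.8 and 69.2) and 7.89 RPKM in Luc KD (quartiles 6.43 and 14.9). They took 0.878% of all counted reads in Siwi KD (95% Wilson interval 0.876% to 0.881%) and 0.274% in Luc KD (0.272% to 0.276%). The intervals cover counting error only, not the spread between libraries, and the rule set the direction of the difference. The 46 held 5.26% of the RPKM of expressed transposon gene models in Siwi KD and 2.47% in Luc KD. For comparison, the other 193 expressed transposon gene models summed to 39262 RPKM in Siwi KD and 24142 RPKM in Luc KD, a ratio of 1.63.

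**Figure D1:**
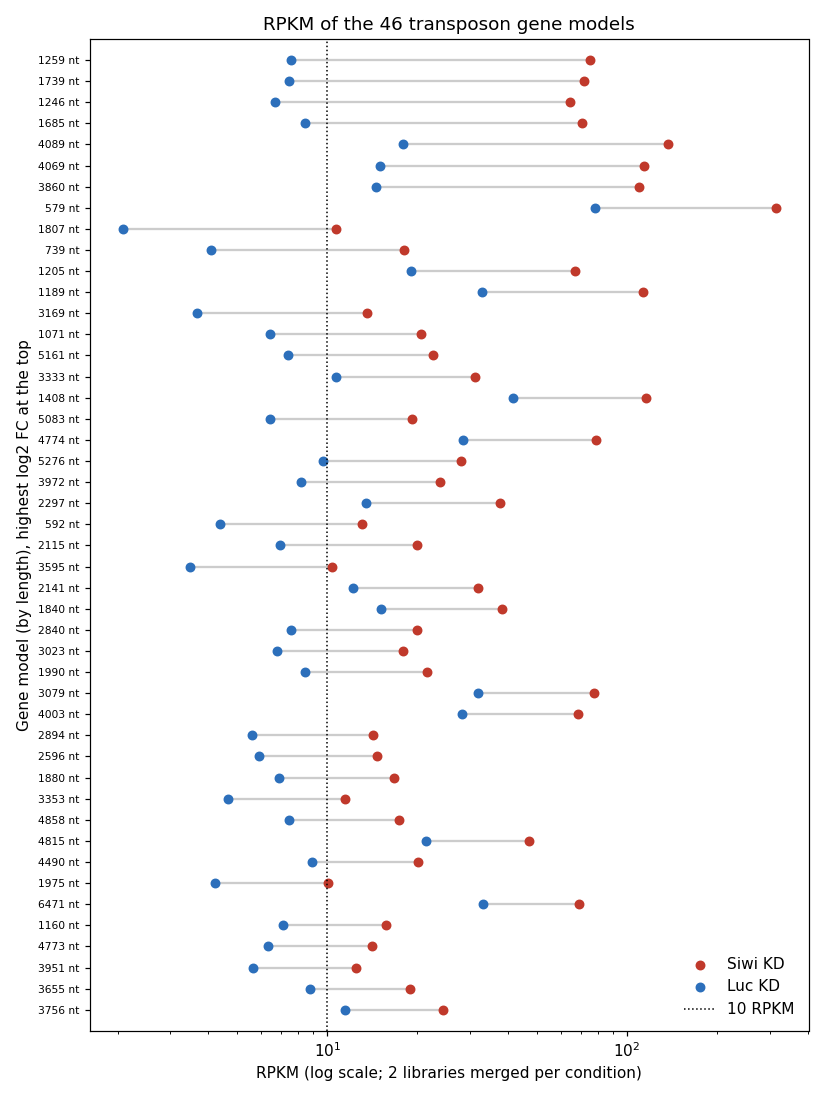
RPKM on a log scale (horizontal axis) of each of the 46 gene models, named by length in nt and ordered by log2 FC, in Siwi KD (red) and Luc KD (blue); each point is the merged value of 2 libraries and the dotted line is 10 RPKM. The 7 uppermost gene models have 64.7 to 137 RPKM in Siwi KD and 6.72 to 17.9 RPKM in Luc KD, and 29 of the 46 lie under 10 RPKM in Luc KD only.

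The log2 FCs of the 46 gene models fell into a group of 7 between 2.83 and 3.15 and a group of 39 between 1.01 and 1.99. No expressed transposon (0) lay between the groups, whereas 6 protein-coding genes did. In RPKM without the pseudo-count, the 7 had ratios from 7.51 to 9.89, and the highest ratio among the other 39 was 5.16. Their increases ran from 58.0 to 119 RPKM. The space between the groups depended on the pseudo-count: with 10 in place of 1, the lowest log2 FC of the 7 was 2.13 and the highest of the other 39 was 1.88, and with 0.1 they were 2.90 and 2.31. By length, the 7 formed a short and a long subset.

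The short subset comprised 4 gene models of 1246 to 1739 nt, with nearly the same level in each condition. KWMTBOMO01586.mrna1 (1259 nt) had 75.2 RPKM in Siwi KD (12282 reads) and 7.60 RPKM in Luc KD (1170 reads). Its log2 FC, 3.15, was the highest of the 46, and the counting error was 0.06. At 1739 nt, the second had 72.0 RPKM in Siwi KD and 7.44 RPKM in Luc KD (log2 FC 3.11), and that of 1246 nt had 64.7 RPKM in Siwi KD and 6.72 RPKM in Luc KD (log2 FC 3.09). With 1685 nt, the last of the 4 had 70.9 RPKM in Siwi KD and 8.46 RPKM in Luc KD, with a log2 FC of 2.93. All 4 were under 10 RPKM in Luc KD and above 60 RPKM in Siwi KD.

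The long subset comprised 3 gene models of 3860 to 4089 nt, each with a higher level in Luc KD than any of the short subset. Its longest, of 4089 nt, had 137 RPKM in Siwi KD (72620 reads) and 17.9 RPKM in Luc KD (8930 reads), giving a log2 FC of 2.87 (counting error 0.02). That of 4069 nt had 114 RPKM in Siwi KD and 15.0 RPKM in Luc KD (log2 FC 2.84), and that of 3860 nt had 110 RPKM in Siwi KD and 14.6 RPKM in Luc KD (log2 FC 2.83). The lowest log2 FC of the short subset, 2.93, was above the highest of the long one, 2.87. This order depended on the pseudo-count. With 10 in place of 1 it was reversed, at 2.13 to 2.27 for the short subset and 2.28 to 2.40 for the long one. Among curated transposons, 1 had a change of the size seen in the 7 gene models. It was an LTR retrotransposon of the Gypsy class with 2860 nt, which had 296 RPKM in Siwi KD and 31.8 RPKM in Luc KD. Gypsy elements copy themselves through RNA by reverse transcription, and their full-length transcript is thus both message and genome. The ratio of this element was 9.29, inside the range of the 7 gene models, and its log2 FC of RPKM + 1 was 3.18, above all 7. Whether the 7 gene models and this element share reads was not tested.

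In the group of 39, the largest increase by far was that of KWMTBOMO16648.mrna1, which at 579 nt was also the shortest of the 46. It had 314 RPKM in Siwi KD (23562 reads) and 78.2 RPKM in Luc KD (5532 reads), a log2 FC of 1.99. It was the most abundant of the 46 in both conditions and held 14.4% of their RPKM in Siwi KD and 12.8% in Luc KD. Next in the group by increase came that of 1189 nt, with 113 RPKM in Siwi KD and 32.8 RPKM in Luc KD (log2 FC 1.75), and that of 1408 nt, with 116 RPKM in Siwi KD and 41.7 RPKM in Luc KD (log2 FC 1.45). With the 3 long gene models of the first group, these were the 6 that passed 100 RPKM in Siwi KD, whereas none (0) of the 46 did so in Luc KD.

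The increases in RPKM were concentrated in few gene models. Of a summed increase of 1569 RPKM, KWMTBOMO16648.mrna1 held 15.0%, the first 5 held 40.0% and the first 10 held 60.9%. These 10 comprised the 7 with a log2 FC above 2, which held 36.0%, and the gene models of 579, 1189 and 1408 nt. The other 36 had 10.0 to 78.7 RPKM in Siwi KD and 2.08 to 33.1 RPKM in Luc KD. As a whole, the 46 made up 9.40% of the net RPKM gain of the expressed transposon gene models and 7.82% of that of all expressed transposons. In these net gains, the falls of other sequences are subtracted from the rises. Of the 193 gene models with a log2 FC of 1 or lower, 8 each gained more RPKM than any of the 46, up to 4929 RPKM, although their relative change was smaller.

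**Figure D2:**
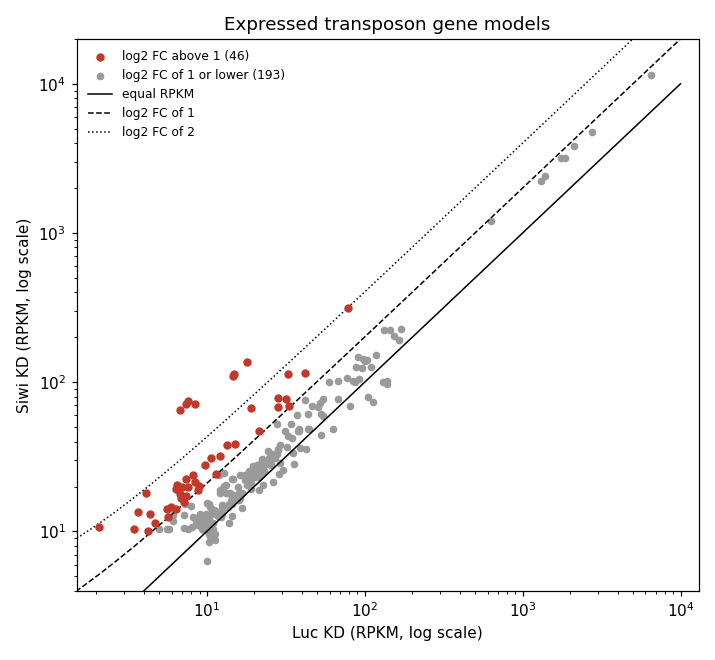
RPKM in Siwi KD (vertical axis) and Luc KD (horizontal axis), both on log scales, for the 239 expressed transposon gene models; red points are the 46 with a log2 FC above 1, grey points the other 193, and the lines mark equal RPKM and log2 FCs of 1 and 2. The red points reach no higher than 78.2 RPKM in Luc KD, and the most abundant gene models, above 1000 RPKM, are all grey.

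By level, 17 of the 46 gene models were above 10 RPKM in both conditions and 29 only in Siwi KD. The 17 had 24.3 to 314 RPKM in Siwi KD and 10.7 to 78.2 RPKM in Luc KD. Beside those already named, they included the gene model of 4774 nt, with 78.7 RPKM in Siwi KD and 28.3 RPKM in Luc KD, and that of 3079 nt, with 77.5 RPKM in Siwi KD and 31.9 RPKM in Luc KD. The longest of the 46, with 6471 nt, had 69.4 RPKM in Siwi KD (58274 reads) and 33.1 RPKM in Luc KD (26148 reads), a log2 FC of 1.05. The gene model of 1205 nt had 67.2 RPKM in Siwi KD and 19.1 RPKM in Luc KD (log2 FC 1.76).

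The 29 gene models above 10 RPKM only in Siwi KD had a median of 18.0 RPKM in Siwi KD and 6.78 RPKM in Luc KD. They were 48.3% of the 60 transposon gene models that passed the limit in Siwi KD alone, and 6 other gene models passed it in Luc KD alone. The lowest level in Luc KD was that of the gene model of 1807 nt, with 10.7 RPKM in Siwi KD (2518 reads) and 2.08 RPKM in Luc KD (460 reads). The gene model of 739 nt had 18.0 RPKM in Siwi KD and 4.10 RPKM in Luc KD (log2 FC 1.90), and that of 592 nt had 13.1 RPKM in Siwi KD and 4.39 RPKM in Luc KD (log2 FC 1.39). Those of 1807, 3595 and 1975 nt were below 11 RPKM in Siwi KD and so only just entered the set.

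Around the threshold, gene models inside and outside the set had much the same values. The 3 just inside were 3756 nt long with 24.3 RPKM in Siwi KD and 11.5 RPKM in Luc KD (log2 FC 1.01), 3655 nt long with 18.9 RPKM in Siwi KD and 8.80 RPKM in Luc KD (1.02), and 3951 nt long with 12.5 RPKM in Siwi KD and 5.67 RPKM in Luc KD (1.02). The 3 just outside were 4773 nt long with 15.4 RPKM in Siwi KD and 7.29 RPKM in Luc KD (log2 FC 0.98), 3948 nt long with 12.9 RPKM in Siwi KD and 6.15 RPKM in Luc KD (0.96), and 3371 nt long with 24.0 RPKM in Siwi KD and 12.0 RPKM in Luc KD (0.94). Their counting errors were 0.03 to 0.04. At this end, the set is the upper part of a continuous range.

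Within the 239 expressed transposon gene models, the 46 had a median rank of 119.5 in Siwi KD and 206.5 in Luc KD, counted from the highest RPKM. They were 12 of the 50 most abundant transposon gene models in Siwi KD and 2 of the 50 in Luc KD. A lower place in Luc KD is built in by the rule.

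The lengths of the 46 gene models ran between 579 and 6471 nt and had a median of 2958.5 nt (quartiles 1756 and 3995 nt). The other 193 had a median of 3216 nt (quartiles 2105 and 5297 nt) and reached 16798 nt. Gene models over 5000 nt were seldom among the 46, with 4 of 60 (6.67%), against 42 of 179 (23.5%) of those up to 5000 nt, a limit set after the values were seen. Among gene models above 10 RPKM in Luc KD, the counts were 1 of 47 over 5000 nt and 16 of 132 up to 5000 nt. Median log2 FCs of all gene models differed less by length, at 0.27 over 5000 nt and 0.41 up to 5000 nt. In bins of 1000 nt, the share was 37.5% up to 1000 nt (3 of 8), 28.0% from 1001 to 2000 nt, 11.5% from 2001 to 3000 nt, 28.2% from 3001 to 4000 nt and 26.7% from 4001 to 5000 nt, so that it did not fall steadily with length. Within the 46, whose log2 FCs the rule cut at 1, length and log2 FC had a Spearman correlation of -0.36. Over all 239 expressed transposon gene models it was -0.11. Both are given as descriptions because the sequences can share reads.

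**Figure D3:**
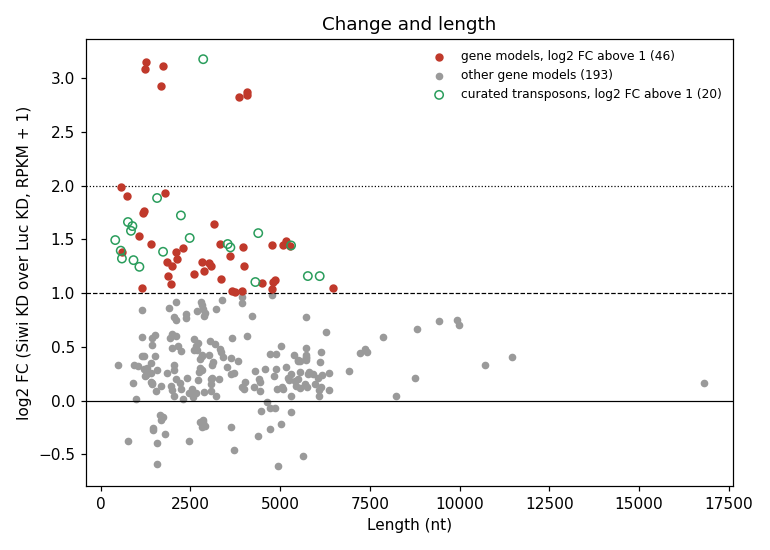
Log2 FC of RPKM + 1, Siwi KD over Luc KD (vertical axis), against length in nt (horizontal axis) for the 46 gene models (red), the other 193 expressed transposon gene models (grey) and the 20 curated transposons with a log2 FC above 1 (green rings); lines mark log2 FCs of 0, 1 and 2. All red points lie at or below 6471 nt, and the 7 above 2 form a subset at 1246 to 1739 nt and another at 3860 to 4089 nt.

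The 20 curated transposons past the same fold change were set beside the 46. Of the 20, 13 were LTR retrotransposons, as were 33 of all 150 expressed curated transposons. The 20 were shorter, with a median of 1990.5 nt, and more abundant, with a median of 163 RPKM in Siwi KD and 47.3 RPKM in Luc KD. Length also differed between the whole classes, with a median of 1308.5 nt for the 150 curated transposons and 3132 nt for the 239 gene models. Median levels in Siwi KD were 28.8 RPKM for the 150 and 23.2 RPKM for the 239. The summed RPKM of the 20 was 4212 in Siwi KD and 1455 in Luc KD, a ratio of 2.89. The median log2 FC was 1.39 for the gene models and 1.45 for the curated transposons, but both were cut at 1 by choice. The differences were not tested, because sequences of one family are not independent measurements.

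Gene model identifiers carry a running number. Of the 46, 6 (13.0%) had another of the 46 within 10 numbers, in 3 pairs. This share grows with the size of a set, so it was not compared with that of other sets. The numbers are taken as given, and no genome coordinates were used. In 1 pair with consecutive numbers, KWMTBOMO16648.mrna1 was next to a gene model of 4003 nt, which had 68.5 RPKM in Siwi KD and 28.2 RPKM in Luc KD (log2 FC 1.25). The other consecutive pair were gene models of 3655 and 1160 nt with log2 FCs of 1.02 and 1.04, and those of 4773 and 2297 nt were 4 numbers apart, with log2 FCs of 1.04 and 1.42. The 7 gene models with the highest log2 FCs included no such pair; their closest, of 4069 and 1259 nt, were 21 numbers apart.

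Protein-coding genes whose numbers lay within 3 of the 46 gene models were not used by the rule. Of 204 such genes, 34 passed 10 RPKM, and none (0) of them had a log2 FC above 1, against 1.64% of all expressed protein-coding genes. With 34 genes, these shares cannot be told apart. Their median log2 FC was -0.04 (quartiles -0.28 and 0.19), and 15 of the 34 (44.1%) were higher in Siwi KD. Over all 2617 expressed protein-coding genes, the median was -0.13 (quartiles -0.29 and 0.05), and 30.9% were higher in Siwi KD. The highest of the 34, a gene of 4797 nt, had 12.3 RPKM in Siwi KD and 6.40 RPKM in Luc KD (log2 FC 0.84). The lowest, a gene of 1015 nt, had 7.65 RPKM in Siwi KD and 12.8 RPKM in Luc KD (log2 FC -0.68). Among the 177 with a read in either condition, the median log2 FC was 0.02, against -0.0031 over 12466 genes.

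The 9 expressed transposon gene models within 3 numbers of the 46 ran from 19.3 to 3831 RPKM in Siwi KD. The 193, which include the 9, ran from 6.34 to 11386 RPKM there, with a median of 23.2 RPKM. The 9 had a median log2 FC of 0.30, against 0.26 over the 193, and all were 1 or lower by the rule. Among them, chosen after the values were seen, a gene model of 2855 nt beside the one of 1408 nt had 3831 RPKM in Siwi KD and 2116 RPKM in Luc KD (log2 FC 0.86). Another of 2376 nt, 2 numbers from that of 3972 nt, had 3166 RPKM in Siwi KD and 1863 RPKM in Luc KD (log2 FC 0.76). The gene model of 3972 nt itself had 23.8 RPKM in Siwi KD and 8.19 RPKM in Luc KD (log2 FC 1.43). In these cases, neighbouring gene models thus differed widely in level, but the rule itself held the change of the neighbours at 1 or lower. Pairs within the 46 varied in this respect. The consecutive pair of 3655 and 1160 nt had 18.9 and 15.8 RPKM in Siwi KD. In Luc KD, this pair had 8.80 and 7.14 RPKM. The other pairs differed more, with 314 and 68.5 RPKM in Siwi KD for those of 579 and 4003 nt. Those of 4773 and 2297 nt had 14.1 and 37.8 RPKM in Siwi KD.

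**Figure D4:**
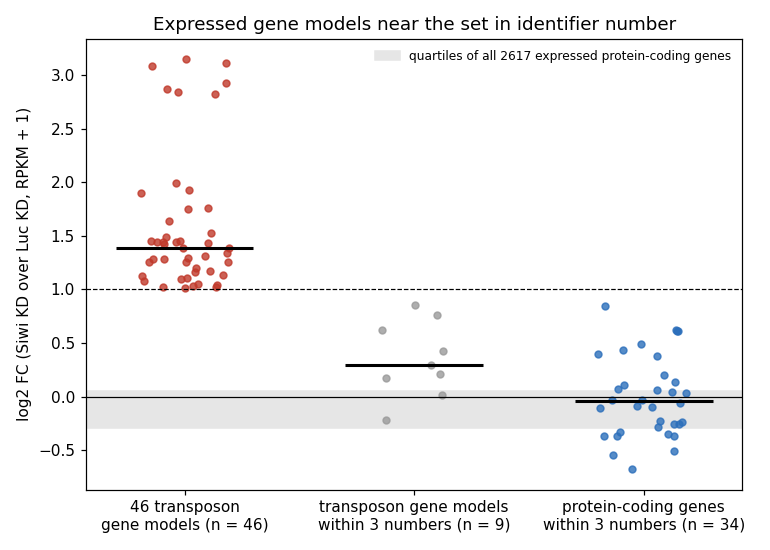
Log2 FC of RPKM + 1, Siwi KD over Luc KD (vertical axis), of the 46 gene models (left) and of the expressed transposon gene models (middle, 9) and protein-coding genes (right, 34) within 3 identifier numbers of them; each point is a sequence, black bars are medians, the side-to-side scatter has no meaning and the grey band spans the quartiles of all expressed protein-coding genes. The 34 protein-coding genes lie between -0.68 and 0.84, all below the dashed line at 1.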

How the data were processed

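Total RNA libraries of BmN4 cells (Siwi KD and Luc KD, 2 each) were analysed from 1 deposited table. The authors trimmed the reads (Trim Galore 0.6.6, per the labels), used STAR for mapping, first to the genome and again to the gene and transposon sequences, and kept sense reads. They merged the replicates of a condition. The deposited read counts are not normalized. Every count was even, so counting errors used read pairs. The RPKM values, as the authors deposited them, are per kilobase and 1000000 genome-mapped reads. The table gives no coordinates.

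The gene models and the lists were chosen with earlier results of these data known. Fold changes used a pseudo-count of 1. With merged replicates, no test between conditions was possible. Sequences named with values were fixed by rule: log2 FC above 2, the 10 largest increases, the longest and shortest, 3 on each side of the threshold and the extreme neighbours. Identifiers are printed for 2; other gene models named were chosen after their values were seen. Intervals are Wilson intervals and cover counting error only. Alternatives covered the pseudo-count, the filter, the scaling, the members and the distance. Calculations used Python 3.11.15 (matplotlib 3.10.9, scipy 1.17.1, pandas 2.3.3, numpy 2.4.6) and were tested on simulated counts.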

Additional observations from a re-analysis of the deposited data

How the results depend on the processing

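The number of transposon gene models past the threshold was 46 and depended most on the pseudo-count and the RPKM limit. With a pseudo-count of 10, 15 remained, all of them among the 46 (6.28% of the expressed transposon gene models in place of 19.2%). Above 20 RPKM, 27 of the 46 remained. Above 5 RPKM there were 55 (14.0%), and without a limit 61 (2.44% of 2504 with a read), which included the 46. With a pseudo-count of 0.1 there were 49, relative to the protein-coding median 53, and per 1000000 reads counted on the sequences 44. Above 2 were 7 with a pseudo-count of 10, 8 per 1000000 counted reads and 10 in both other alternatives. The ratio of summed RPKM, 3.56, was 3.52 by read counts, 3.50 without the gene model of 579 nt, 2.88 without the 7 highest and 3.95 relative to protein-coding RPKM. The median length was 1739 nt with a pseudo-count of 10 and 3079 nt above 20 RPKM. The number with another within 5 or 20 identifier numbers was 6 each.

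No paired analysis was possible because the replicates were merged in the deposited table. For the same reason, leaving out each replicate was not run. Reads shared between similar copies were not separated.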

Other observations

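At or under 10 RPKM in both conditions, 1744 transposon gene models had at least 100 reads. With a pseudo-count of 0.1, 75 of them (4.30%) had a log2 FC above 1 and 2 had one below -1, and their median over all 1744 was 0.25. Protein-coding genes within these limits numbered 6420, of which 316 (4.92%) were above 1 and 72 below -1, with a median of -0.01. Within these limits, the share above 1 was no higher for the transposon gene models, whereas values below -1 were rarer and the median was higher. The limit of 10 RPKM left out sequences that rose past it in Siwi KD. The shares above 1 therefore miss such rises and do not compare the 2 classes as a whole. The 75 had a median of 2.43 RPKM in Siwi KD and 0.92 RPKM in Luc KD and a median length of 2250 nt. The 5 above a log2 FC of 2 included a gene model of 1685 nt, the same length as one of the 7 with the highest changes, with 1.05 RPKM in Siwi KD (230 reads) and 0.117 RPKM in Luc KD (24 reads). This gene model was chosen after its values were seen.

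Of the 46 gene models, 3 had the same length as another expressed transposon gene model outside the set. The 2 gene models of 4773 nt had 14.1 and 15.4 RPKM in Siwi KD and 6.37 and 7.29 RPKM in Luc KD, close to each other in both conditions. Those of 1975 nt differed, with 10.0 and 21.0 RPKM in Siwi KD and 4.22 and 19.0 RPKM in Luc KD, and so did those of 1408 nt, with 116 and 33.2 RPKM in Siwi KD and 41.7 and 27.7 RPKM in Luc KD. Whether gene models of equal length are copies of one sequence was not tested; sequences were not used here.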
